A study of Mus musculus with 12 samples.

Results

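The Bcl2 family genes described here are 10 genes whose proteins keep cells alive or commit them to death at the mitochondrion, measured in macrophages with and without inducible NO synthase (NOS2). They are the survival genes Bcl2, Bcl2l1 (Bcl-xL), Bcl2l2 (Bcl-w) and Mcl1, the pore-forming effector Bak1, and the BH3-only genes Bcl2l11 (Bim), Bid, Bad, Bik and Pmaip1 (Noxa). Members were taken by name, with earlier results of these data known. Measured values enter the rule only in the choice of 1 probe set per gene, by mean signal. A probe set is the group of short oligonucleotides by which the array measures a transcript, and 35 of the 34945 probe sets that the annotation assigns to exactly 1 gene belong to these genes. All 35 are described, and for tests across genes each of the 18193 genes was represented by its probe set of highest mean signal, so that the family contributes 10 genes of 18193.

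Bone marrow-derived macrophages (BMDMs), grown from marrow precursors in M-CSF, came from WT C57BL/6 mice and from Nos2-/- mice of the strain B6.129P2-Nos2tm1Lau/J, in which the gene is disrupted in every cell and its neighbourhood on chromosome 11 may derive from the strain in which it was targeted. None of the 10 genes is on chromosome 11. The methods give animals of 6 to 10 weeks, matched for age and sex, and whether the animals were pooled is not given in the sources used here. Stimulated cells received LPS, a bacterial cell wall component, at 100 ng/mL together with IFNγ at 50 ng/mL for 8 h. The other cells are called untreated: the methods name vehicle for the same time, whereas the labels describe them as collected ahead of the stimulus. Genotype and stimulation give 4 groups, each with 3 arrays labelled as biological replicates, so the p-values measure the spread between those samples.

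Proteins of the Bcl2 family meet at the outer mitochondrial membrane. Survival proteins hold the pore formers BAK1 and BAX in check, and BH3-only proteins, which cells make or activate under stress, occupy the survival proteins or act on the pore formers directly. Once the pore opens, cytochrome c leaves the mitochondrion, APAF1 assembles with it and caspases are activated. In macrophages the balance between these groups helps set whether a cell survives an inflammatory stimulus.

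The targeted gene checked the labels. The log2 signal of Nos2 averaged 5.50 ± 0.14 (SD, n = 3) in untreated and 9.73 ± 0.09 in stimulated WT cells, against 5.31 ± 0.14 and 7.69 ± 0.22 in Nos2-/- cells, so the probe set still registers some transcript in stimulated Nos2-/- cells. The summed linear signal of 8 of 8 macrophage markers lay between 70892 and 74632 on all 12 arrays, although single markers changed with stimulation: in each genotype 5 fell, among them Csf1r, Adgre1, Lyz2 and Cd68 (-0.87 in WT and -0.91 in Nos2-/- cells), and 2 rose, Fcgr1 (1.24 and 1.27) and Cd14 (0.79 and 0.76). The sum of 7 of 8 neutrophil markers was 995 to 1504 in untreated and 5889 to 6110 in stimulated WT cells, and 1213 to 1878 and 7562 to 7871 in Nos2-/- cells. S100a8, which activated macrophages also express, reached a log2 signal of 12.27 and 12.67 in the stimulated groups. Of these 7 markers 3 rose in each genotype, S100a8 by 3.39 and 3.57, Camp by 0.82 and 0.96 and Mpo by 0.29 and 0.46. Elane and Mpo had mean signals below the median gene signal of 6.12, and the other 5 were above it. Sums of 5 of 5 dendritic cell markers were 172 to 183 on untreated arrays, 345 to 435 in stimulated WT and 438 to 545 in stimulated Nos2-/- cells. Of these, 4 had mean signals below the median gene signal, Ccr7 being the exception. Ccr7 went from 4.91 to 7.83 in WT and from 5.02 to 8.33 in Nos2-/- cells. Between stimulated genotypes none of the 5 was called. Ccr7, Siglech and Zbtb46 differed by 0.50, 0.11 and 0.03, and Flt3 and Xcr1 by -0.11 and -0.12. Sums of 5 of 6 erythroid and megakaryocyte markers were 6201 to 7192 on untreated arrays and 2031 to 3025 on stimulated ones. Of these 5 markers Pf4, the brightest, was the 1 called lower in each genotype. Its mean log2 signal went from 12.66 to 11.27 in WT and from 12.62 to 10.97 in Nos2-/- cells. In each genotype 1 other marker was called higher, in WT Itga2b by 0.42. Over all arrays those of T and NK cell markers were 252 to 313, of B cell markers 195 to 232, of mast cell and basophil markers 69 to 86 and of stromal markers 101 to 145. The part of other cell types in the results on the Bcl2 family was not tested, and in bulk RNA fewer cells of a type and less RNA per cell cannot be told apart.

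Stimulation changed most of the family, in both genotypes in much the same way. Bak1, Pmaip1, Mcl1, Bcl2l2 and Bad, 5 of the 10 genes, rose in WT cells, whereas 2, Bcl2 and Bcl2l1, fell. In Nos2-/- cells the same 5 genes rose, and Bcl2 and Bid fell. A gene was called where its p, adjusted by Benjamini-Hochberg over all genes, was under 0.05 in limma, a linear model that borrows information on variance across genes. By that rule 29.6% of all genes were called higher and 28.4% lower in WT, and 26.3% higher and 28.2% lower in Nos2-/- cells, so a family with 5 of 10 genes higher and 2 lower stands among a very broad response. The median log2 fold change of the 10 genes was 0.21 in WT and 0.23 in Nos2-/- cells, beside 0.07 and 0.05 over all genes. Both survival and death genes were among the risers in each genotype. The fallers were survival genes in WT, and in Nos2-/- cells the survival gene Bcl2 and the death gene Bid. Of the 10 changes called in WT or Nos2-/- cells that were not those of Bcl2 and Bak1, the largest was the rise of Pmaip1 in WT cells by 0.61.

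**Figure D1:**
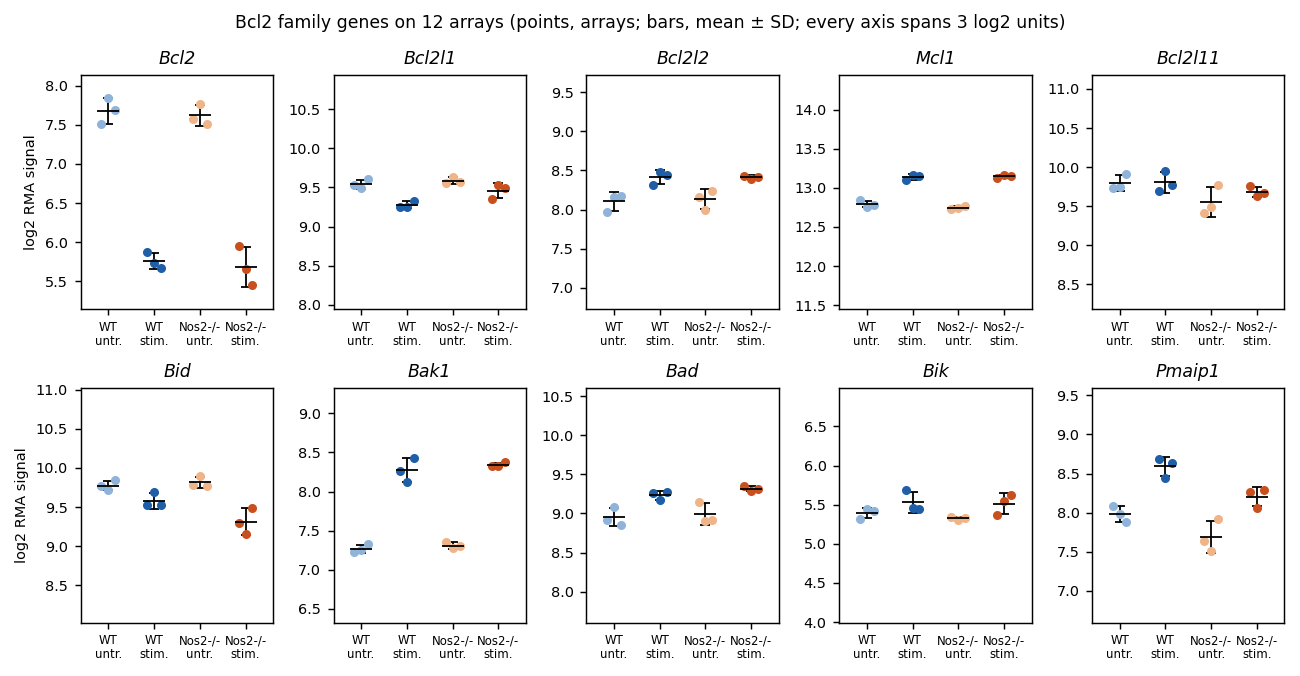
Log2 RMA signal of each of the 10 genes on the 12 arrays, 1 panel per gene, with WT in blue and Nos2-/- in orange, untreated pale and stimulated dark. Points are arrays, bars are the mean ± SD of 3 arrays, and every vertical axis spans 3 log2 units, so that the fall of Bcl2 (from 7.68 to 5.76 in WT) and the rise of Bak1 (from 7.27 to 8.27 in WT) can be set beside the narrow changes of the rest.

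Bcl2, the founding survival gene of the family, showed the largest change. Its log2 signals were 7.51, 7.84 and 7.69 on the untreated and 5.88, 5.73 and 5.67 on the stimulated WT arrays. On the Nos2-/- arrays they were 7.57, 7.77 and 7.52 without and 5.95, 5.66 and 5.45 with stimulation. Every stimulated array was below every untreated array by more than 1 log2 unit, and the genotypes overlapped in both conditions. The fall on the log2 scale was -1.92 in WT (95% confidence interval -2.18 to -1.66, adjusted p = 7.49e-09, limma), or 3.78-fold lower, and -1.93 in Nos2-/- cells (-2.20 to -1.67, adjusted p = 6.25e-09, limma), or 3.82-fold lower. The mean of all 5 Bcl2 probe sets, in place of the brightest, brought the fall to a log2 change of -0.59 in WT and -0.62 in Nos2-/- cells, still called.

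Bcl2l1 encodes Bcl-xL, which guards cells such as macrophages and red cell precursors. WT signals were 9.53, 9.49 and 9.60 before and 9.26, 9.25 and 9.33 after stimulation, without overlap, a fall with a log2 change of -0.26 (-0.40 to -0.12, adjusted p = 0.0034, limma). Nos2-/- signals were 9.56, 9.64 and 9.56 before and 9.36, 9.53 and 9.49 after, a change of -0.13 (-0.27 to 0.01, adjusted p = 0.119, limma) that did not pass the test although these groups did not overlap either. The WT call was lost when all 4 probe sets of the gene were averaged, with a log2 change of -0.07 and an adjusted p of 0.342 in limma. That p was the highest over the alternatives, which began at 0.000939. Among the 4, 1426050_at had a mean signal of 3.56 over all arrays, below the median gene signal.

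Mcl1 encodes a short-lived survival protein. Its signals were 12.84, 12.76 and 12.78 in untreated and 13.10, 13.16 and 13.15 in stimulated WT cells, and 12.73, 12.75 and 12.77 in untreated and 13.13, 13.17 and 13.15 in stimulated Nos2-/- cells. All stimulated arrays were above all untreated ones, and the SD within a group was at most 0.04. The rise was 0.34 in WT (0.22 to 0.46, adjusted p = 0.000107, limma) and 0.40 in Nos2-/- cells (0.28 to 0.52, adjusted p = 2.36e-05, limma), which is 1.27-fold and 1.32-fold. Bcl2l2 encodes Bcl-w, another survival protein. It rose by 0.31 in WT (0.14 to 0.48, adjusted p = 0.00427, limma) and by 0.28 in Nos2-/- cells (0.11 to 0.45, adjusted p = 0.00887, limma), from 7.97, 8.17 and 8.17 to 8.32, 8.48 and 8.44 in WT and from 8.17, 8.00 and 8.24 to 8.43, 8.38 and 8.42 in Nos2-/- cells. Its groups did not overlap, but without the second untreated Nos2-/- array the rise in Nos2-/- cells was 0.21 and was no longer called (adjusted p = 0.0513, limma, the highest over the alternatives, which began at 0.000285). Of the 4 survival genes, then, Bcl2 fell and Mcl1 and Bcl2l2 rose in both genotypes, and Bcl2l1 fell in WT.

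Bak1 encodes the pore-forming effector BAK1 and showed the largest rise of the family by the brightest probe set of each gene. The Bcl2l11 probe set 1426334_a_at, not the brightest of that gene, rose by 1.20 in Nos2-/- cells. In WT cells the Bak1 signals went from 7.22, 7.26 and 7.32 to 8.26, 8.12 and 8.43. In Nos2-/- cells they went from 7.35, 7.28 and 7.30 to 8.32, 8.32 and 8.37. The lowest stimulated array was above the highest untreated array of either genotype. The log2 rise was 1.00 in WT (0.84 to 1.17, adjusted p = 3.98e-08, limma) and 1.03 in Nos2-/- cells (0.87 to 1.19, adjusted p = 2.86e-08, limma), or 2.01-fold and 2.04-fold.

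Among the BH3-only genes, Pmaip1, a p53 target whose product Noxa binds MCL1 in particular, rose in both genotypes. Its signals were 8.09, 7.98 and 7.88 in untreated and 8.69, 8.45 and 8.64 in stimulated WT cells, and 7.64, 7.51 and 7.92 in untreated and 8.27, 8.06 and 8.28 in stimulated Nos2-/- cells. The Nos2-/- series ran at a lower level, and its stimulated arrays lay between the untreated and stimulated WT arrays, apart from 1 that was below the highest untreated WT array. The rise was 0.61 in WT (0.38 to 0.84, adjusted p = 0.000217, limma) and 0.52 in Nos2-/- cells (0.29 to 0.75, adjusted p = 0.000855, limma).

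Bad, whose protein is held inactive by survival kinases, rose by 0.28 in WT (0.11 to 0.45, adjusted p = 0.00817, limma) and by 0.33 in Nos2-/- cells (0.16 to 0.50, adjusted p = 0.00303, limma). Its WT signals were 8.91, 9.08 and 8.86 before and 9.26, 9.17 and 9.27 after stimulation, and its Nos2-/- signals were 9.15, 8.90 and 8.92 before and 9.35, 9.28 and 9.32 after. Stimulated arrays were above untreated ones in each genotype.

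Bid, the link from death receptors to mitochondria through its cleavage by caspase 8, fell in Nos2-/- cells. There its signals went from 9.78, 9.89 and 9.77 to 9.29, 9.15 and 9.49, a log2 change of -0.50 (-0.69 to -0.32, adjusted p = 0.000185, limma). WT signals were 9.77, 9.71 and 9.84 before and 9.52, 9.70 and 9.52 after stimulation. They did not overlap, but the change of -0.19 (-0.38 to -0.01) missed the threshold with an adjusted p of 0.0716 in limma. In 8 of 23 alternative analyses the WT fall was called, with adjusted p over all of them from 0.0301 to 0.194. Among those 8 were the fits without the second stimulated WT array (-0.25) and without the second or the third stimulated Nos2-/- array (-0.19 in each).

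Bcl2l11 encodes Bim, a potent killer in leukocytes, and Bik encodes a BH3-only protein of the endoplasmic reticulum. Neither passed the test in either genotype by its brightest probe set. For Bcl2l11 the signals were 9.73, 9.74 and 9.92 in untreated WT, 9.69, 9.95 and 9.78 in stimulated WT, 9.41, 9.48 and 9.78 in untreated Nos2-/- and 9.76, 9.64 and 9.67 in stimulated Nos2-/- cells, with overlap of both pairs and log2 changes of 0.01 (-0.20 to 0.22) and 0.13 (-0.08 to 0.34). Bik signals ran from 5.30 to 5.68 over the 12 arrays, below the median gene signal, with log2 changes of 0.14 (-0.04 to 0.31, adjusted p = 0.169, limma) in WT and 0.19 (0.01 to 0.37, adjusted p = 0.0641, limma) in Nos2-/- cells. The latter was called without the first stimulated WT array (0.19, adjusted p = 0.0391, limma) and without the first stimulated Nos2-/- array (0.26, adjusted p = 0.0167, limma), the range over the alternatives being 0.0167 to 0.615.

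**Figure D2:**
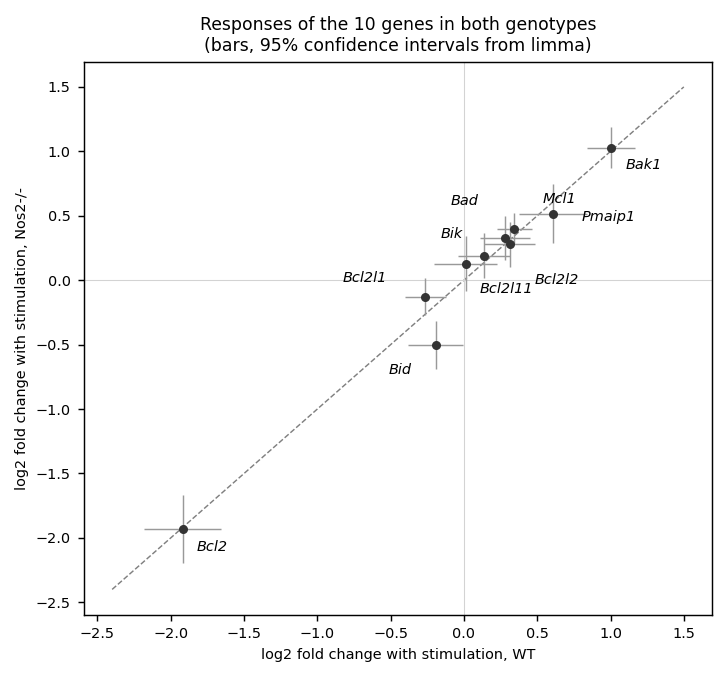
Log2 fold change with stimulation of the 10 genes, each by its brightest probe set, in WT (horizontal axis) and in Nos2-/- BMDMs (vertical axis). Bars are 95% confidence intervals from limma, and a dashed line marks where both would be equal. Bcl2 lies alone at -1.92 and -1.93, Bak1 at 1.00 and 1.03, and the other 8 between -0.50 and 0.61, with Bid farthest from the line.

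Most genes of the family have several probe sets, which read different stretches of their transcripts and differ in brightness. They share the RNA of 1 gene and are not replicates. When all probe sets were tested, 17 of the 35 were called higher and 5 lower in WT cells, beside 26.5% higher and 27.6% lower of all single-gene probe sets, and 17 and 5 were called in Nos2-/- cells, beside 24.5% and 26.9%. For Mcl1 all 6 probe sets rose in both genotypes, by 0.30 to 0.69 in WT and 0.28 to 0.72 in Nos2-/- cells. Both Bak1 probe sets rose, by 0.96 and 1.00 in WT and by 1.14 and 1.03 in Nos2-/- cells, as did both of Bad.

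The probe sets of the Bim gene did not move together. Its brightest probe sets, 1456005_a_at and 1435448_at, showed log2 changes of 0.01 and -0.00 in WT, whereas 3 others rose. The probe set 1426334_a_at read 7.45, 7.43 and 7.54 in untreated and 8.43, 8.40 and 8.46 in stimulated WT cells, and 7.16, 7.31 and 7.57 in untreated and 8.60, 8.37 and 8.67 in stimulated Nos2-/- cells. On that probe set the stimulated arrays stood above all untreated ones, with log2 rises of 0.96 in WT (0.74 to 1.17, adjusted p = 1.36e-06, limma) and 1.20 in Nos2-/- cells (0.98 to 1.42, adjusted p = 1.12e-07, limma). The probe set 1456006_at rose by 0.37 in WT and 0.63 in Nos2-/- cells, and 1435449_at by 0.24 and 0.45. When the 5 probe sets of Bcl2l11 were averaged the gene was called, at 0.31 in WT (adjusted p = 0.00407, limma) and 0.50 in Nos2-/- cells (adjusted p = 0.000106, limma). Without the third untreated Nos2-/- array the brightest probe set was called in Nos2-/- cells as well, at 0.24 (adjusted p = 0.0449, limma). Over all alternatives its adjusted p ran from 0.00407 to 0.938 in WT and from 0.000106 to 0.686 in Nos2-/- cells.

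For Bcl2, 3 of 5 probe sets fell in both genotypes, 1457687_at by the amounts above, 1437122_at with log2 changes of -0.78 and -1.13, and 1440770_at with -0.23 and -0.26. The probe set 1422938_at showed -0.09 and -0.08 without passing the test, and 1443837_x_at rose by 0.28 in Nos2-/- cells. Apart from 1457687_at and 1422938_at (6.16), the mean signals of the Bcl2 probe sets over all arrays were below the median gene signal, at 4.80 for 1437122_at and 3.37 for 1440770_at. For Bcl2l1, 1420888_at and 1426191_a_at, with mean signals of 9.47 and 6.72, were lower in WT by -0.26 and -0.23. The probe set 1426050_at was higher there by 0.27 (adjusted p = 0.0456, limma), at a mean signal of 3.56, below the median gene signal. None of the 4 Bcl2l1 probe sets passed in Nos2-/- cells. Of the 3 Bid probe sets, 1417045_at and 1448560_at fell in Nos2-/- cells, by -0.50 and -0.61, and none passed in WT. For Bcl2l2 2 of 4 rose in both genotypes and for Bik none of 3 passed.

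**Figure D3:**
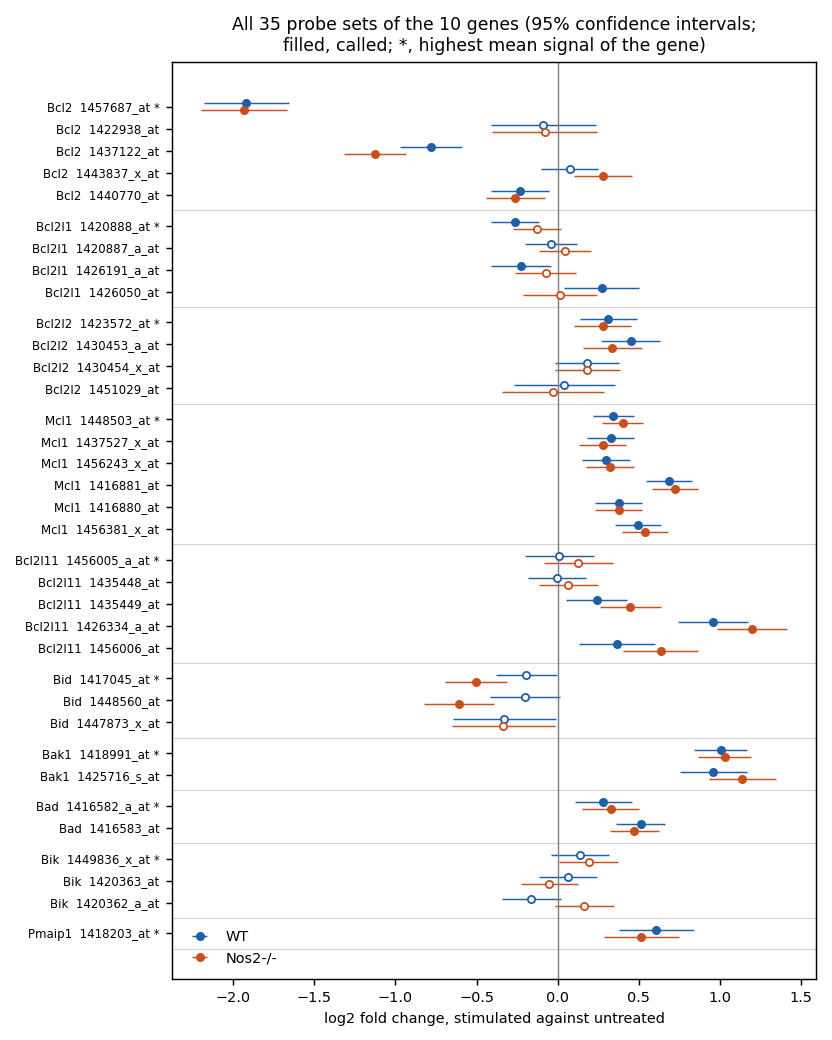
Log2 fold change with stimulation of all 35 probe sets of the 10 genes, in WT (blue) and Nos2-/- BMDMs (orange), with 95% confidence intervals from limma. Filled points were called, open points were not, and an asterisk marks the brightest probe set of a gene. All 6 Mcl1 probe sets are to the right of 0, whereas those of Bcl2l11 range from -0.00 to 0.96 in WT.

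Promoter sequence is shown for Bcl2 and Bak1, which fell most and rose most by the brightest probe sets, and for Mcl1, all of whose probe sets rose. The RefSeq promoter table of GRCm38.p6 holds 12 promoters of 8 of the 10 genes, Bik and Pmaip1 having no entry. The 250 bases before each start site were searched on both strands for a kappaB form (GGGNNTTTCC, bound by NF-kB factors), an ISRE core (GAAANNGAAA, bound by interferon-regulated factors) and the GC box (GGGCGG, bound by Sp1). Each sequence reads 5′ to 3′ towards the start site, and capitals mark the matches.
Bcl2, chr1:106714291-106714540, minus strand: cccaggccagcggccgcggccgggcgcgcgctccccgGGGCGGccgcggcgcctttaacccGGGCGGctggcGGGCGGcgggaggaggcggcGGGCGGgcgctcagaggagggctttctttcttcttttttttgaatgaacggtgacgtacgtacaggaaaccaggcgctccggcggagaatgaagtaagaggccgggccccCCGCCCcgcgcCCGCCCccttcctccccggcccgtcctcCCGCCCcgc
Bak1, chr17:27028628-27028877, minus strand: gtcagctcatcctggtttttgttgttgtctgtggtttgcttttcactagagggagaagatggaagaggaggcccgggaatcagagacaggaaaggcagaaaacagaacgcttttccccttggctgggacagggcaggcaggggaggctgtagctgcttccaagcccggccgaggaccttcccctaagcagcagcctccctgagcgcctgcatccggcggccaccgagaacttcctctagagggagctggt
Mcl1, chr3:95658471-95658720, plus strand: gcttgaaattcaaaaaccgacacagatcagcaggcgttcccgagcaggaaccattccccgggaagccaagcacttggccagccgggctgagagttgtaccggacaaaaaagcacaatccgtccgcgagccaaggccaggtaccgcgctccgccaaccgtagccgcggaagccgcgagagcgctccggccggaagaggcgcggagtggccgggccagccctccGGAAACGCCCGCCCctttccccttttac

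The Bcl2 window is 74.8% G and C with 36 CpG dinucleotides and holds 7 GC boxes, the farthest beginning at -213 counted from the start site. The Bak1 window is 58.4% G and C with 8 CpG dinucleotides and holds none of the 3 motifs. The Mcl1 window is 64.4% G and C with 26 CpG dinucleotides, and its kappaB match, at -28 to -19, overlaps its GC box, at -20 to -15. Over all 32851 promoters the median was 52.4% G and C with 6 CpG dinucleotides, the kappaB form was in 1.41%, the ISRE core in 2.98% and the GC box in 32.7%. Among the other promoters of the family, the kappaB form was in 1 of the 3 of Bcl2l1, the GC box was in both of Bcl2l11 and in those of Bid, Bcl2l2 and 1 of the 2 of Bad, and ISRE cores were in none of the 12.

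The question of the study was what the absence of NOS2 changes in stimulated macrophages. Between stimulated Nos2-/- and stimulated WT cells none of the 10 genes passed the test, while 1.03% of all genes were called higher and 1.91% lower. At an unadjusted p under 0.05 in limma 1 gene was higher and 2 were lower, beside 6.72% and 8.34% of all genes, and the linear model without moderation also called 0. The median log2 difference of the 10 genes was -0.01, the same as over all genes. The largest difference was that of Pmaip1, whose stimulated signals were 8.27, 8.06 and 8.28 in Nos2-/- and 8.69, 8.45 and 8.64 in WT cells. The groups did not overlap, and the difference was -0.39 (-0.62 to -0.16), or 1.31-fold lower in Nos2-/- cells, with an adjusted p of 0.0767 in limma. In 3 of 23 alternatives Pmaip1 was called lower, 1 of them without the third untreated Nos2-/- array (adjusted p = 0.0400, limma), and its adjusted p over the alternatives ran from 0.0354 to 0.221.

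Bid differed between the stimulated genotypes by -0.27 (-0.46 to -0.08, adjusted p = 0.136, limma), with Nos2-/- signals of 9.29, 9.15 and 9.49 all below the WT signals of 9.52, 9.70 and 9.52. Without the third stimulated Nos2-/- array the difference was -0.36 and was called (adjusted p = 0.0398, limma, the lowest over the alternatives, which reached 0.371). Bcl2l1 differed by 0.18 (0.04 to 0.32, adjusted p = 0.189, limma) and Bad by 0.09 (-0.09 to 0.26, adjusted p = 0.677, limma), both with all Nos2-/- arrays above the WT arrays. The groups of the other 6 genes overlapped, and over all genes the Nos2-/- arrays lay entirely above the WT arrays for 8.21% and entirely below them for 8.89%. Their intervals reached no farther than -0.34 for Bcl2 on the low side and 0.23 for Bak1 on the high side, so larger differences than these lie outside the 95% intervals of these probe sets.

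Among the 35 probe sets 0 were called higher, with 2 higher at an unadjusted p under 0.05 beside 6.98% of all single-gene probe sets, and 2 were called lower in stimulated Nos2-/- cells, beside 1.05% higher and 1.54% lower of all single-gene probe sets. Bcl2 by 1437122_at read 4.64, 4.43 and 4.49 in stimulated WT and 4.18, 4.19 and 4.01 in stimulated Nos2-/- cells, a difference of -0.39 (-0.58 to -0.20, adjusted p = 0.0322, limma). These signals were below the median gene signal, and the brightest Bcl2 probe set differed by -0.07 (-0.34 to 0.19). Bid by 1448560_at read 7.92, 8.07 and 8.08 in stimulated WT and 7.64, 7.35 and 7.82 in stimulated Nos2-/- cells, a difference of -0.42 (-0.64 to -0.20, adjusted p = 0.0412, limma). In both cases the groups did not overlap. Under the alternatives run for probe sets the Bcl2 one was called in 12 of 20 and the Bid one in 5 of 21, with adjusted p as high as 0.130 and 0.194. In the model without moderation neither was called. The Bid call was kept without the third stimulated Nos2-/- array (-0.53) and lost when any other array was left out, and the Bcl2 call was lost without the first untreated WT array (-0.39), the first (-0.33) or the third (-0.41) stimulated WT array, or the first (-0.42) or the third (-0.33) stimulated Nos2-/- array.

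**Figure D4:**
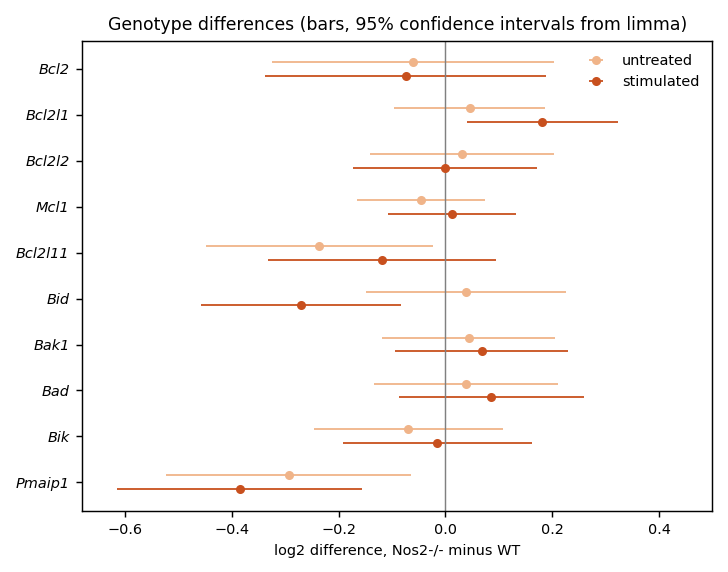
Log2 difference of Nos2-/- from WT BMDMs for the 10 genes, untreated (pale) and stimulated (dark), with 95% confidence intervals from limma. None of the 20 differences passed the test over all genes, and the farthest from 0 are those of Pmaip1, at -0.29 untreated and -0.39 stimulated.

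Without stimulation none of the 10 genes differed between the genotypes by the test, and the share of all genes called was 0.0055% in each direction. At an unadjusted p under 0.05 in limma 0 genes were higher and 2 lower, beside 1.95% and 2.05% of all genes, and the model without moderation called 0. Those 2 were Pmaip1, at -0.29 (-0.52 to -0.06), and Bcl2l11, at -0.24 (-0.45 to -0.02), each with overlapping groups and an adjusted p of 1.00 in limma. The median of the 10 genes was -0.01. Averaged over both treatments, a contrast added after the values were seen, 0.956% of all genes were called lower in Nos2-/- cells, and Pmaip1 was the 1 gene of the 10 called, at -0.34 (-0.50 to -0.18, adjusted p = 0.0492, limma). That call was lost in 14 of 23 alternatives, with adjusted p from 0.0130 to 0.170. A test of whether the 2 genotypes responded differently also called none, beside 0.302% of genes higher and 0.676% lower, with 0 higher and 1 lower at an unadjusted p under 0.05, beside 4.77% and 5.26% of all genes, and 0 in the model without moderation. That gene was Bid, whose response was lower in Nos2-/- cells by -0.31 (-0.57 to -0.04, adjusted p = 0.397, limma). For Bcl2 the difference of responses was -0.01 (-0.39 to 0.36) and for Bak1 it was 0.02 (-0.20 to 0.25). The call of Bcl2l1 in WT alone and of Bid in Nos2-/- cells alone therefore do not show that the responses differed.

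The 3 genes of the family with the widest range of group means were Bcl2, Bak1 and Pmaip1. Over the 12 arrays the genes most like Bcl2 by Pearson correlation were Eif2ak3, Msh6 and Paics, at 0.996 each, and those most like Bak1 were Ndufs4, Stx18 and Mapk7, also at 0.996. Since these 12 points are 4 groups and stimulation separates them into 2 clusters, such a value says mainly that a gene moves with the stimulus. Those most like Pmaip1 were Fabp4 at 0.956, Sesn2 at 0.955 and Cdkn1a at 0.952. Fabp4 encodes a fatty acid binding protein, Sesn2 the stress protein sestrin 2 and Cdkn1a the cell cycle inhibitor p21.

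Other genes of the family fell into the same broad response. Of 16 further family genes 10 have a probe set of their own, which leaves out Bax, Bcl2a1a, Bcl2a1b, Bcl2a1c, Bcl2a1d and Bnip3l. Stimulation raised 3 of these and lowered 4 in WT, beside 29.6% and 28.4% of all genes. It raised 3 and lowered 3 in Nos2-/- cells, beside 26.3% and 28.2%. The largest changes were those of Bmf, a BH3-only gene, and Bnip3, a mitophagy gene with a BH3-like motif. Bmf went from 9.19 ± 0.15 to 6.11 ± 0.24 in WT and from 9.11 ± 0.03 to 5.83 ± 0.13 in Nos2-/- cells (SD, n = 3 arrays), with log2 changes of -3.08 and -3.28. Bnip3 rose from 10.24 ± 0.08 to 13.11 ± 0.03 in WT and from 10.30 ± 0.03 to 13.07 ± 0.08 in Nos2-/- cells, by 2.86 and 2.77. Both changes were larger than any among the 10 genes. Bok, an effector-like gene with a mean signal of 5.34, below the median gene signal, rose by 0.40 and 0.44. Bcl2l14 rose by 0.54 and 0.41, and Bcl2l12 fell with -0.47 and -0.44. Bbc3, which encodes the p53-induced BH3-only protein PUMA, fell in WT with -0.39 and showed -0.23 (adjusted p = 0.0739, limma) in Nos2-/- cells. Bcl2l13 fell with -0.31 and -0.17, the latter turning to 0.01 when the arrays were quantile normalized again and the brightest probe set was chosen anew. Bcl2l10, Bcl2l15 and Hrk passed in neither genotype, and none of the 10 was called between stimulated genotypes. At an unadjusted p under 0.05 in limma 1 was higher and 2 were lower there, beside 6.72% and 8.34% of all genes.

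Downstream and upstream of the family, lists of the mitochondrial and caspase steps, of death receptors and of known regulators of the family were counted in the same way. Over all genes 29.6% were called higher and 28.4% lower in WT, and 26.3% and 28.2% in Nos2-/- cells. Of 17 measured genes of mitochondrial release and caspase activation 5 were higher and 7 lower after stimulation in WT, with 6 higher and 8 lower in Nos2-/- cells. Apaf1, the scaffold that cytochrome c activates, rose by 1.21 and 1.66, and Birc3, an inhibitor of apoptosis, by 1.38 and 1.41. Birc5, the inhibitor survivin that dividing cells express, fell with -1.54 and -2.02, and the mitochondrial protease gene Htra2 with -0.98 and -1.27. The death receptor list holds receptors, their ligands and adaptors, and caspase 8 with its inhibitor Cflar. Of its 10 measured genes (of 11 listed, Ripk1 lacking a probe set of its own) 7 were higher and 0 lower in each genotype. Fas stood at 3.16 and 3.31 and Tnfsf10, the gene of the ligand TRAIL, at 2.85 and 3.79. Cflar rose by 2.25 in WT, and its mean signal went from 9.06 to 11.47 in Nos2-/- cells. At an unadjusted p under 0.05 in limma 0 of the list were lower in either genotype. Over all 18193 genes 5349 were lower at that threshold in WT and 5339 in Nos2-/- cells.

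Of 16 measured regulators (of 18 listed, without Trp53 and Rps6ka1) 7 rose and 8 fell in both genotypes. The shares over all genes were 29.6% higher and 28.4% lower in WT, and 26.3% and 28.2% in Nos2-/- cells. The kinase gene Pim1, whose product phosphorylates BAD, rose by 2.93 and 2.99, its relative Pim3 by 1.60 and 1.17, and Ddit3, a stress factor that induces Bim, by 1.39 and 1.29. Foxo1, a factor that drives death genes, fell with -0.96 and -0.72, Dynll1 with -0.41 and -0.69 and Dynll2, whose product tethers BMF, with -0.72 and -0.65. The median log2 changes in WT and Nos2-/- cells were -0.08 and -0.22 for the mitochondrial list, 0.65 and 0.70 for the death receptor list and -0.15 and -0.09 for the regulators, beside 0.07 and 0.05 over all genes.

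A few genes of these lists were called between stimulated genotypes, beside 1.03% higher and 1.91% lower of all genes. Apaf1 was 0.32 higher in Nos2-/- cells (0.17 to 0.46, adjusted p = 0.0233, limma), Tnfsf10 0.55 higher (0.30 to 0.81, adjusted p = 0.0203, limma) and Tnf, the gene of the cytokine TNF, 0.41 higher (0.23 to 0.58, adjusted p = 0.0131, limma). Pim3 was lower with a difference of -0.37 (-0.51 to -0.22, adjusted p = 0.00708, limma) and Htra2 with -0.24 (-0.36 to -0.11, adjusted p = 0.0421, limma). No other measured gene of the 4 lists was called, and the 10 genes of the family were not tested against them.

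**Figure D5:**
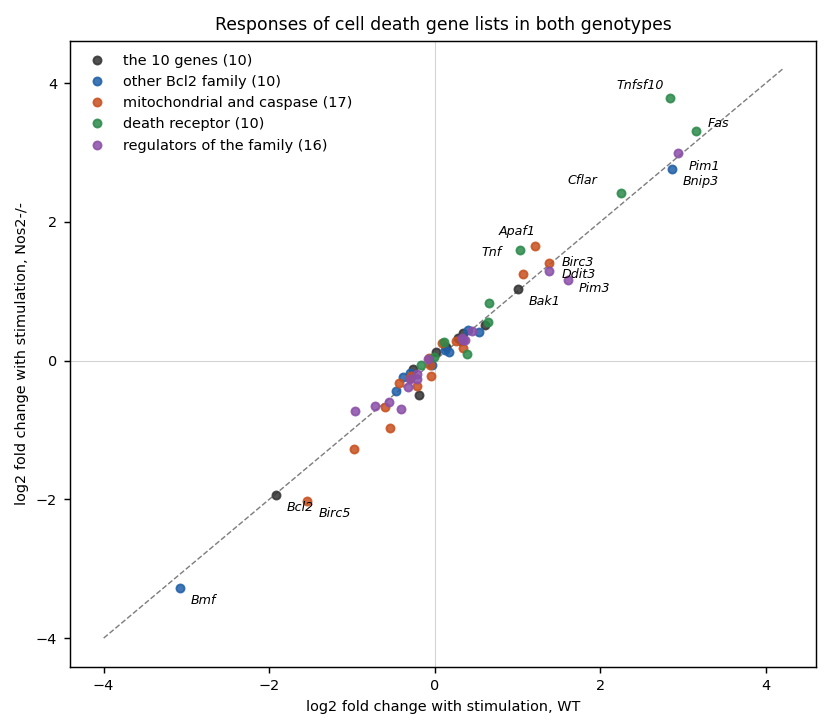
Log2 fold change with stimulation in WT (horizontal axis) and in Nos2-/- BMDMs (vertical axis) for the 10 genes and the 4 further lists, 1 point per gene, with the number of measured genes in the legend and a dashed line of equal change. Bmf, at -3.08 and -3.28, and Bnip3, at 2.86 and 2.77, lie beyond Bcl2 and Bak1, and Tnfsf10, at 2.85 and 3.79, lies farthest above the line among the labelled genes.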

How the data were processed

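The authors hybridized total RNA to Affymetrix mouse whole-genome expression arrays, 1 per sample, and processed the images with RMA in Partek (version not given in the sources used here), which corrects background, quantile normalizes and summarizes probes. The deposited values are log2 signals of 45101 probe sets. Array medians ran from 5.14 to 5.21, and arrays of a group correlated at 0.996 or above. Precision is limited by the number of arrays, which give intensities and no counts. Control probe sets (64) and those of several genes (932) or none (9160) were left out, and no dim probe set was filtered.

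One limma 3.58.1 model in R 4.3.3 (lmFit, eBayes, two-sided) with a mean per group was fitted to all 12 arrays, once over genes and once over probe sets, and tested on simulated data. The study selected genes by variance analysis, taking a 1.5-fold change and 0.5 for the false discovery rate. These thresholds were an alternative, as were other normalizations, filters and probe set choices, blocking on replicate number, and omission of each array in turn. Lists were described by counts and medians only, and some listed genes and one further motif are not reported here. The text names all 10 genes with their probe sets, up to 2 called genes per direction of each list and comparison, and all measured other family genes. It also names the 3 genes most like each of the 3 widest-ranging members, Nos2, Cflar and markers. The members and lists were chosen with earlier results of these data known. Figures were drawn with matplotlib 3.10.9.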

Additional observations from a re-analysis of the deposited data

Results flagged for a closer look

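For 4 genes of the further lists the response to stimulation differed between the genotypes in the limma test of that difference over all genes. The same test called 0.302% of all genes higher and 0.676% lower. The response of Tnfsf10 was larger in Nos2-/- cells by 0.94 on the log2 scale (SE 0.17, adjusted p = 0.0140, limma, n = 3 arrays per group), its mean signal going from 5.49 to 8.34 in WT and from 5.10 to 8.89 in Nos2-/- cells. This call was lost in 3 of 23 alternatives, with an adjusted p of up to 0.203. Tnf responded more in Nos2-/- cells by 0.56 (SE 0.11, adjusted p = 0.0347, limma), a call lost in 12 of 23, up to 0.0981. Apaf1 responded more by 0.45 (SE 0.10, adjusted p = 0.0495, limma), lost in 17 of 23, up to 0.139. Pim3 responded less, with a difference of -0.44 (SE 0.10, adjusted p = 0.0475, limma), lost in 19 of 23, up to 0.581. All 4 kept their direction under every alternative run. None of the 10 Bcl2 family genes was called in the test of that difference.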

How the results depend on the processing

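Over 23 alternatives, 1116 single values of the 10 genes kept their side of the threshold, 18 gained a call, 11 lost one and no called value turned its direction. At the methods' thresholds (1.5-fold, false discovery rate 0.5), 2 genes were higher and 1 lower in WT and 1 higher and 1 lower in Nos2-/- cells, with 5 probe sets higher in each genotype, 2 lower in WT, 3 lower in Nos2-/- cells and 0 lower between stimulated genotypes. The count of genes lower in stimulated Nos2-/- cells went from 0 to 1, Pmaip1, with an intensity trend or without genes below the median signal, and was 0 to 1 when single arrays were left out. The count of probe sets lower there (2) was 0 with only the arrays compared, 0 without moderation, 1 with array medians centred and 0 to 2 with single arrays left out. Probe sets lower in WT (5) were 8 with centred medians, 3 without dim genes and 3 to 6 with single arrays left out, 3 being without the second untreated WT array. Probe sets lower in Nos2-/- cells (5) were 3 without dim genes. Bcl2l13 in Nos2-/- cells turned from -0.17 to 0.014 when quantile normalized again. That setting also chose the brightest probe set of each gene anew. The cause of these changes was not tested. Probe set counts were not run for the settings that replace the choice of probe sets.

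Same-numbered arrays correlated between -0.26 and 0.21 in their deviations from group means. With 3 arrays per group such values cannot decide whether shared numbers stand for paired samples, and the main model did not pair them. With the replicate number as a block (replicate block), 5 genes were higher and 2 lower in each genotype, 0 differed between stimulated genotypes, and the probe sets lower there numbered 1. All 3 probe sets of Bik had a mean signal below the median gene signal, and signal over background was not given for them.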
